A study of Mus musculus with 2 samples.

Results

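Hemoglobin-rich spots were the spots of the liver sections in which globin transcripts made up the largest share of the RNA. For each spot with at most 50000 UMIs, the share H was computed as the UMIs (unique molecular identifiers, 1 per captured probe molecule) of all symbols starting with Hba- or Hbb- divided by all UMIs of the spot, and the top 5% of the spots by H were taken in each section. This gave 223 of 4472 spots, 115 of 2309 in the AEG-1-WT section and 108 of 2163 in the AEG-1-C75S section. The other 2194 and 2055 spots are called remaining spots.

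The sections came from the livers of 8-week-old, untreated female littermates, bred from heterozygous parents. AEG-1-WT carried the wild-type protein, and AEG-1-C75S was a germline knock-in made by CRISPR/Cas9 in which the cysteine of AEG-1 that carries palmitate is a serine in all cell types. RNA was captured with gene-specific probes from a formalin-fixed, paraffin-embedded 5 μm section on a Visium slide, which reads out spots that each cover several cells. With 1 section of 1 mouse per genotype there was no replicate, so no test between or within genotypes was possible, and each interval below is a 95% exact interval that covers counting error only.

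Red blood cells of adult mice carry hemoglobin built of alpha and beta globin chains. They lose their nucleus, and the youngest of them, reticulocytes, still hold globin mRNA, which is lost as they mature. In the liver lobule, blood enters through branches of the portal vein and hepatic artery in the portal tract, runs through sinusoids lined by fenestrated endothelium and Kupffer cells, and leaves through the central vein. Zone 1 hepatocytes lie near the portal tract and zone 3 hepatocytes near the central vein.

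The 150 bases before the transcript start are shown for 3 globin genes and for Alas2, the erythroid genes on which the results turn, so that the letters of 3 motifs can be seen. The GATA motif of erythroid transcription factors was searched as AGATAA, and in its other form as TGATAA. The other motifs, common in globin promoters, were the CACCC box and the CCAAT box. All were searched on both strands, and capitals mark their matches in the sequences, written 5′ to 3′ on the strand of the gene. The promoters are from RefSeq, build GRCm38.p6, matched by symbol for these 4 genes.
Hba-a2, chr11:32296342-32296491, plus strand: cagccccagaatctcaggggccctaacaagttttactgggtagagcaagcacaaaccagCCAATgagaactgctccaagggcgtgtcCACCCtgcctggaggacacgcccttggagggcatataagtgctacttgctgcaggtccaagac
Hbb-bs, chr7:103827929-103828078, minus strand: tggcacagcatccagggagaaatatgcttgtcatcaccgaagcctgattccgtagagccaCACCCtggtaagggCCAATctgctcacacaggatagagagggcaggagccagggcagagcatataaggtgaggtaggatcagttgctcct
Hbb-bt, chr7:103813924-103814073, minus strand: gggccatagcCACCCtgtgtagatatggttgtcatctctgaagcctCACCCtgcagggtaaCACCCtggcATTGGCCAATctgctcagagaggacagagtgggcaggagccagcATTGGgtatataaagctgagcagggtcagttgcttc
Alas2, chrX:150547267-150547416, plus strand: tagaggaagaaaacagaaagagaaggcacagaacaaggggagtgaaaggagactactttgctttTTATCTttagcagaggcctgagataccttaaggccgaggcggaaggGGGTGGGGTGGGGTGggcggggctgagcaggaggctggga
Hba-a2 and Hbb-bs each held 1 CACCC and 1 CCAAT match. Hbb-bt held 3 of each, and a pair of its CCAAT matches, on opposite strands, lie side by side. Alas2 held 1 GATA match, written TTATCT on this strand, and 3 CACCC matches, written GGGTG. In windows of the same length from 32851 promoters, 9.65% held the GATA letters, 37.4% the CACCC box and 24.5% the CCAAT box, so each match describes the sequence and no more.

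H chose the spots, so H and globin values are given as a description only. In the AEG-1-WT section the hemoglobin-rich spots held 10711 globin UMIs among 2238929 UMIs, a pooled H of 0.478% (0.469 to 0.488), against 0.0377% (0.0371 to 0.0383) in the remaining spots. In the AEG-1-C75S section they held 5359 globin UMIs among 1474115 UMIs, a pooled H of 0.364% (0.354 to 0.373), against 0.0286% (0.0281 to 0.0291) in the remaining spots. H of single hemoglobin-rich spots ran from 0.176% to 3.73% with a median of 0.298% in AEG-1-WT, and from 0.159% to 3.01% with a median of 0.279% in AEG-1-C75S. By this choice the hemoglobin-rich spots held 41.5% of all globin UMIs in AEG-1-WT, and 31.8% of those in AEG-1-C75S, with 5.30% and 3.54% of all UMIs.

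The spot with the highest H in AEG-1-WT had 891 globin UMIs of 23903, and the next had 890 of 42624. In AEG-1-C75S the highest had 110 globin UMIs of 3656, and the next had 149 of 7410. The highest AEG-1-WT spots were thus rich in globin counts, while those of AEG-1-C75S were also shallow. At the threshold, the last AEG-1-WT spot inside had an H of 0.176% (25 of 14183 UMIs) and the first outside 0.172% (30 of 17428). In AEG-1-C75S the last inside had 20 globin UMIs of 12615 and the first outside 1 of 631, at nearly the same H.

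Depth moved with the choice of spots in the AEG-1-C75S section. There the median was 11408 UMIs and 3282 genes per hemoglobin-rich spot against 19100 UMIs and 4106 genes per remaining spot, and 48 hemoglobin-rich spots (44.4%) had fewer than 10000 UMIs against 17.0% of the remaining spots. In the AEG-1-WT section the medians were 17853 UMIs and 4045 genes against 16808 UMIs and 3887 genes. With the spots of a section in 10 equal bins of total UMIs, 26 of the 108 AEG-1-C75S spots lay in the lowest bin and 1 in the highest, whereas each bin held 9 to 15 of the 115 AEG-1-WT spots. Only 1 spot in each section had under 10 globin UMIs, and the median was 57 for AEG-1-WT and 38 for AEG-1-C75S. The part of depth in the results below was not tested beyond the values given under the following choices or weights of spots. Spots were chosen within bins of depth, or among those of at least 10000 UMIs. In a further alternative, the remaining spots were weighted to the hemoglobin-rich spots over 10 bins of non-globin UMIs. The barcode lists of the sections shared 1887 kept barcodes, which on a Visium slide name positions of the same grid, and 2 of them were hemoglobin-rich in both.

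**Figure D1:**
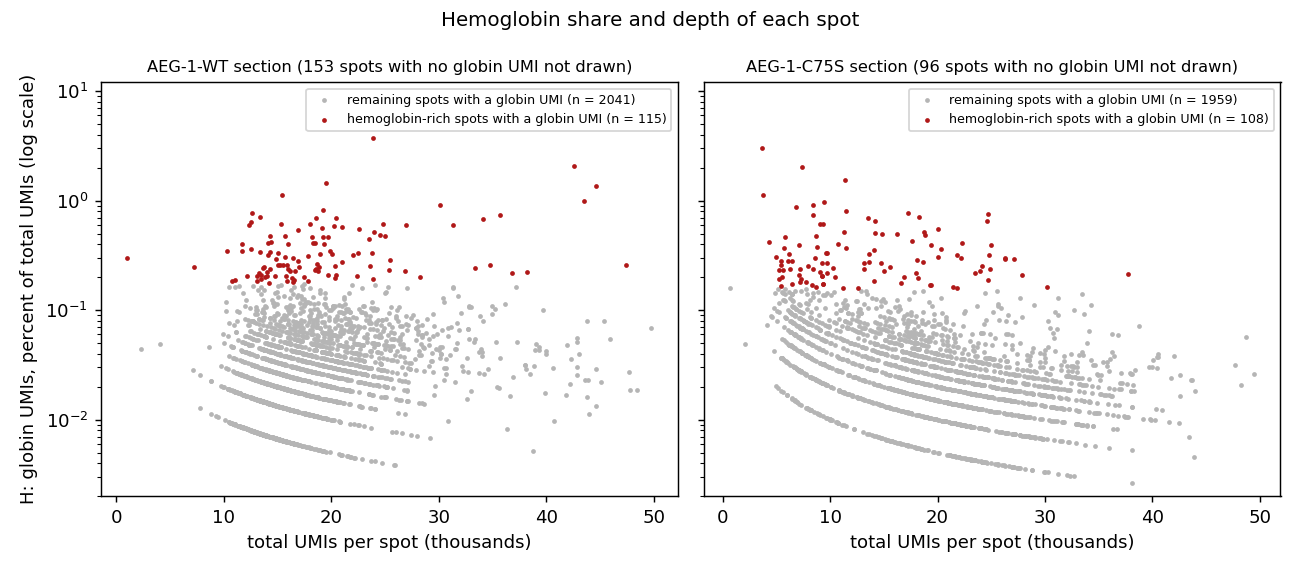
Share of globin UMIs (H, percent of total UMIs, log axis) against total UMIs for each spot of the AEG-1-WT and AEG-1-C75S sections, with hemoglobin-rich spots in red and remaining spots in gray; spots with no globin UMI (153 and 96) are not drawn. The AEG-1-WT red points lie over the whole range of depth, and many AEG-1-C75S red points lie below 10000 UMIs.

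The globin genes counted were those of adult red cells. In AEG-1-WT the hemoglobin-rich spots held 7162 UMIs of Hbb-bs and 324 of Hbb-bt, the adult beta chains, and 3225 of Hba-a2, an adult alpha chain. In AEG-1-C75S they held 3578, 141 and 1640. Hba-a2 and Hbb-bs were each found in all 115 and all 108 spots, and Hbb-bt in 82 and 66. The embryonic globins Hba-x, Hbb-y, Hbb-bh1 and Hbb-bh2 had 0 UMIs in the hemoglobin-rich spots of both sections, which allows up to 3 counts each. Hba-a1 was not analysed here.

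The makeup of the globin RNA was compared between the hemoglobin-rich and the remaining spots. Hba-a2 made up 30.1% of the globin UMIs in AEG-1-WT hemoglobin-rich spots and 31.1% in the remaining spots, and 30.6% and 30.2% in AEG-1-C75S. Hbb-bs made up 66.9% and 66.1% for AEG-1-WT and 66.8% and 66.2% for AEG-1-C75S. Hbb-bt made up the rest, 3.02% and 2.78% for AEG-1-WT and 2.63% (2.22 to 3.10) and 3.62% (3.28 to 3.98) for AEG-1-C75S, where its intervals did not overlap. When spots were chosen by the beta globins alone, Hba-a2, which then played no part in the choice, was 11.8-fold higher (11.3 to 12.4) in the chosen AEG-1-WT spots than in the others and 12.5-fold higher (11.7 to 13.2) in AEG-1-C75S. The alpha and beta chains thus lay in the same spots in both sections.

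For all other genes, the level in the hemoglobin-rich spots and in the remaining spots of the same section was given as CPM (counts scaled to 1e+06 UMIs that are not globin), with their log2 ratio. Of 7315 genes with at least 400 UMIs in each section, 11 (0.15%) were at least 1.5-fold higher in the hemoglobin-rich spots of both sections and 7 (0.0957%) at least 1.5-fold lower. Within a section, 46 (0.629%) were that much higher and 65 (0.889%) lower in AEG-1-WT, and 213 (2.91%) and 147 (2.01%) in AEG-1-C75S, whose sums were smaller. The median log2 ratio of all 7315 genes was 0.03 for AEG-1-WT and 0.08 for AEG-1-C75S. The 11 genes were Alas2, Vwf, Gsn, Tent5c, Ears2, Col3a1, Timp2, Timp3, Spp1, Dhrs11 and Ehd4, and the 7 were Rsad2, Pilrb1, Mgat5, Epsti1, Igkc, Dse and Tnfrsf11b. In a spot, a higher level of a gene may be more cells of a type or more RNA per cell, and these cannot be told apart.

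**Figure D2:**
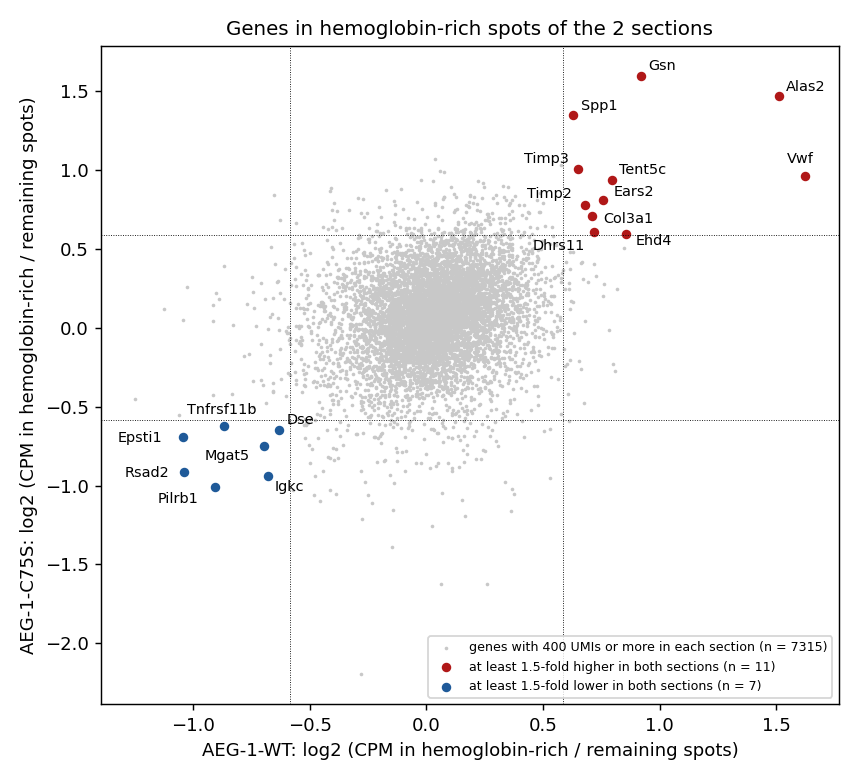
Log2 ratio of the level (CPM) in hemoglobin-rich over remaining spots for 7315 genes, AEG-1-WT on the x axis and AEG-1-C75S on the y axis, with dotted lines at 1.5-fold and the 11 higher (red) and 7 lower (blue) genes named. Alas2, at 1.51 and 1.47, lies farthest from both dotted lines at the upper right.

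Ranked by the section with the smaller ratio, the highest gene was Alas2, which encodes the erythroid form of the first enzyme of heme synthesis. It had 91 UMIs in AEG-1-WT hemoglobin-rich spots, 40.8 CPM against 14.3 CPM in the remaining spots, a log2 ratio of 1.51 (1.18 to 1.83). In AEG-1-C75S it had 43 UMIs, 29.3 CPM against 10.6 CPM, a log2 ratio of 1.47 (0.98 to 1.92). The interval lay above the 1.5-fold line in both sections. Alas2 was seen in 55 of the 115 and 36 of the 108 spots, with at most 12 UMIs in 1 spot of AEG-1-WT, the spot second in H, and without it the log2 ratio was 1.33. In AEG-1-C75S no spot had more than 3 UMIs of it.

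Within the hemoglobin-rich spots, Alas2 was highest where H was highest. With the hemoglobin-rich spots in 4 equal parts from the highest H down, its level was 74.6, 32.1, 21.9 and 26.7 CPM for AEG-1-WT and 55.0, 20.04, 24.9 and 19.3 CPM for AEG-1-C75S. The spots with the highest H thus had the highest level in each section, and the other parts did not fall in order. When spots were chosen within 10 bins of depth, the log2 ratio was 1.51 for AEG-1-WT and 1.27 for AEG-1-C75S, and with spots of at least 10000 UMIs it was 1.51 and 1.28.

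Tent5c, a poly(A) polymerase that lengthens mRNA tails, was higher at 22.0 against 12.7 CPM in AEG-1-WT (log2 ratio 0.79, 0.34 to 1.22) and at 24.5 against 12.8 CPM in AEG-1-C75S (0.94, 0.41 to 1.43). Without the top 5% of spots by connective tissue, smooth muscle and cholangiocyte genes, it was at 0.54 and 0.50, both under 1.5-fold. With the top 10% of spots it was at 0.36 for AEG-1-WT and 0.80 for AEG-1-C75S. Within bins of depth it was at 0.66 and 0.72. Bpgm, which makes the bisphosphoglycerate that loosens oxygen from hemoglobin, had log2 ratios of 0.76 (0.36 to 1.15) and 0.28 (-0.30 to 0.81), so only its AEG-1-WT value passed 1.5-fold.

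Most other red cell genes were at or near 0 UMIs or had ratios under 1.5-fold. Of the 24 red cell membrane, heme and late erythroid genes in the table, 9 reached the minimum and 2 of these were called higher, Alas2 and Tent5c, beside 0.15% of all genes. Their median log2 ratio was 0.06 for AEG-1-WT and 0.14 for AEG-1-C75S. Slc4a1, the band 3 anion exchanger, Epb42, Rhag, Hemgn, Trim58, Tspo2 and Ermap had 0 UMIs in the hemoglobin-rich spots of both sections, and no more than 4 in the remaining spots of either, so these zeros do not set the hemoglobin-rich spots apart. The summed level of the list was 661 CPM against 597 CPM in AEG-1-WT (log2 ratio 0.15, 0.07 to 0.22) and 589 CPM against 533 CPM in AEG-1-C75S (0.15, 0.05 to 0.24). Fech, the last enzyme of heme synthesis, which hepatocytes also use, gave the most UMIs of the list, 36.9% and 40.3%, and its log2 ratios were -0.05 and 0.03.

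Genes of nucleated erythroid precursors did not stand out. Of 15 in the table, 3 reached the minimum and 0 were called, which at 0.15% of all genes says little of so short a list. The summed log2 ratio was -0.03 (-0.15 to 0.10) for AEG-1-WT and 0.03 (-0.12 to 0.18) for AEG-1-C75S. Blvrb, which hepatocytes also express, gave 68.4% and 72.3% of these UMIs. Gata1, Gfi1b and Cldn13 had 0 UMIs in the hemoglobin-rich spots, and no more than 4 in the remaining spots of either section. These zeros thus do not set the hemoglobin-rich spots apart. Klf1, a transcription factor of erythroid cells, had 5 and 4 UMIs in the hemoglobin-rich spots. Members below the minimum lay on both sides of 0. Tal1 was at 0.65 and 1.02, Nfe2 at 0.61 and 0.49, Cd24a at 0.63 and 0.56 and Klf1 at 0.06 and 0.87, each with intervals that included 0, and the proliferation gene Mki67, with 13 and 3 UMIs, was at -0.56 (-1.48 to 0.23) and -1.75 (-4.04 to -0.19). Of the 7 genes of the shared heme pathway, 0 were called, beside 0.15% of all genes higher, and Alas1, the form of the first enzyme that all tissues use, had log2 ratios of 0.24 (0.13 to 0.35) and 0.34 (0.17 to 0.51).

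Other cells of the blood were sparse. Neutrophil genes had 26 UMIs in the AEG-1-WT spots and 23 in the AEG-1-C75S spots, and none of them reached the minimum. Platelet genes had 47 and 43 UMIs, and among them Ppbp and Pf4, chemokines of platelet granules, had log2 ratios of 1.98 (0.99 to 2.87) and 0.91 (0.07 to 1.65) for AEG-1-WT and of 1.30 (-0.07 to 2.41) and 1.04 (0.17 to 1.79) for AEG-1-C75S. Platelet genes as a list had log2 ratios of 0.47 (0.01 to 0.90) and 0.34 (-0.13 to 0.79), and of -0.29 for AEG-1-C75S with spots of at least 10000 UMIs. The most abundant of them was the integrin Itgb3, at -0.56 and -0.69. B cell genes had a summed log2 ratio of -0.43 (-0.68 to -0.19) and -0.76 (-1.09 to -0.44), and 1 of the 2 that reached the minimum was called lower, Igkc, the constant region of the kappa light chain, beside 0.0957% of all genes. Its UMIs were the most of the list, and other members differed in direction, with Ms4a1 at 0.63 and 0.32 and Cd79b at 0.37 and -1.32.

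Of the genes of vessel lining, Vwf was called higher in the hemoglobin-rich spots, while the lists of endothelial genes were not higher as a whole in both sections beyond their intervals. Vwf, which encodes von Willebrand factor of larger vessel endothelium, had 92 UMIs and 41.3 CPM in AEG-1-WT hemoglobin-rich spots against 13.4 CPM in the remaining spots (log2 ratio 1.62, 1.29 to 1.94), and 30 UMIs and 20.4 CPM against 10.5 CPM in AEG-1-C75S (0.96, 0.38 to 1.5). A single AEG-1-WT spot held 22 of the 92 UMIs, and without it the log2 ratio was 1.24. In AEG-1-C75S the log2 ratio of Vwf was 0.38 with spots chosen within depth bins and 0.23 with the top 2% of spots, both under 1.5-fold. The gap junction gene Gja5, which marks arterial endothelium, had 15 UMIs and 7, with log2 ratios of 2.32 (1.39 to 3.16) and 1.94 (0.55 to 3.09), below the minimum. In the vein endothelial list, 1 of the 4 genes that reached the minimum was called, Vwf, beside 0.15% of all genes, and in the artery and portal list, which was at 0.37 (0.21 to 0.53) and 0.17 (-0.05 to 0.38), 0 of 3 were. The vein endothelial list as a whole was at -0.02 (-0.17 to 0.13) and -0.33 (-0.52 to -0.15). Plvap, the diaphragm protein of fenestrated endothelium, gave 65.6% and 71.1% of its UMIs and was at -0.48 and -0.58. Sele had 0 UMIs in the hemoglobin-rich spots of both sections, and 2 and 3 UMIs in the remaining spots.

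Some matrix genes of the portal tract and vessel wall were higher. Col3a1, a fibrillar collagen, was at 114 CPM against 69.9 CPM in AEG-1-WT (log2 ratio 0.71, 0.52 to 0.90) and at 72.2 CPM against 44.2 CPM in AEG-1-C75S (0.71, 0.41 to 0.99). Gsn, which severs actin filaments and is high in fibroblasts, was at 0.92 (0.59 to 1.23) and 1.60 (1.09 to 2.07). The matrix protease inhibitors Timp2 and Timp3 were at 0.68 and 0.65 for AEG-1-WT and at 0.78 and 1.01 for AEG-1-C75S. Of the 4 connective tissue genes that reached the minimum, 2 were called, beside 0.15% of all genes. The list summed to 409 CPM against 242 CPM in AEG-1-WT (0.76, 0.66 to 0.86) and 233 CPM against 134 CPM in AEG-1-C75S (0.80, 0.64 to 0.95).

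Smooth muscle genes rested on few spots. Acta2, smooth muscle actin, had log2 ratios of 2.09 (1.71 to 2.46) and 2.67 (1.24 to 3.89), from 76 UMIs for AEG-1-WT and 7 for AEG-1-C75S. Of the 76, 33 lay in 1 spot, which also held 33 of the 93 UMIs of Tagln and 12 of the 22 of Myh11, both of the contractile apparatus. This spot ranked 28 by H. Without that spot the AEG-1-WT log2 ratios were 1.29 for Acta2, 0.83 for Tagln and 0.33 (-0.76 to 1.25) for Myh11. The list was at 186 CPM against 105 CPM for AEG-1-WT and 91.2 CPM against 68.1 CPM for AEG-1-C75S, with 0 of 3 genes called higher, beside 0.15% of all genes.

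Bile duct genes were also higher. Spp1, which encodes osteopontin and is abundant in bile duct epithelium, was at 162 CPM against 105 CPM in AEG-1-WT (log2 ratio 0.63, 0.47 to 0.79) and at 194 CPM against 76.3 CPM in AEG-1-C75S (1.35, 1.17 to 1.52). Epcam, a cell adhesion protein of the same epithelium, had 30 and 21 UMIs, with log2 ratios of 1.21 and 1.78. Spp1 was seen in 44 of 115 hemoglobin-rich spots (38.3%) and in 52.1% of the remaining spots for AEG-1-WT, and in 54 of 108 and 52.4% for AEG-1-C75S, shares that were not corrected for depth. Its higher level was thus not matched by a higher share of spots with a UMI. Without its fullest spot, which held 44 of 362 UMIs for AEG-1-WT and 40 of 285 for AEG-1-C75S, the log2 ratio was 0.46 and 1.15. The fullest spot of AEG-1-WT was the one that held 22 UMIs of Vwf.

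The other genes called higher were Ears2, a mitochondrial tRNA synthetase, at 0.76 (0.28 to 1.21) and 0.81 (0.19 to 1.37), Ehd4, of endosome recycling, at 0.86 and 0.59, and Dhrs11, a dehydrogenase, at 0.72 and 0.60. The intervals of Ehd4 and Dhrs11 reached below 0 in AEG-1-C75S. Without the fullest spot of each section, Ehd4 was at 0.63 and 0.49, Dhrs11 at 0.65 and 0.42, Timp2 at 0.54 and 0.57, Timp3 at 0.57 and 0.89, and Col3a1 at 0.54 and 0.61, so that these and Spp1 were each under 1.5-fold in at least 1 section.

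Only a part of the hemoglobin-rich spots ranked high by smooth muscle, connective tissue or cholangiocyte genes. Among the top 5% of spots by smooth muscle, connective tissue or cholangiocyte genes were 25 of the 115 AEG-1-WT spots (21.7%), where these groups made up 10.1% of all spots, and 35 of the 108 AEG-1-C75S spots (32.4%), where they made up 11.3%. The other 90 and 73 spots were in none of these groups. In an alternative, the top 5% of spots by the sum of these lists were left out, fewer spots than the groups above held together. Hemoglobin-rich spots were then chosen again. The log2 ratio of the smooth muscle list was 0.14 for AEG-1-WT and 0.0013 for AEG-1-C75S, and that of the connective tissue list 0.25 and 0.06. That of the cholangiocyte list was -0.15 and -0.04, and that of Vwf 0.43 and 0.63. Alas2 was then at 1.47 and 1.30. Alas2 played no part in leaving out these spots, while the drop of the smooth muscle, connective tissue and cholangiocyte lists follows from how they were chosen and is a description only. With spots of at least 10000 UMIs, some AEG-1-C75S ratios of matrix, vessel and bile duct genes were also smaller. They were 0.26 for the connective tissue list, 0.50 for Vwf, 0.48 for Spp1 and -0.02 for Timp2. The smooth muscle list changed less, from 0.42 to 0.35. With the remaining spots weighted by depth instead, the connective tissue list, Vwf, Spp1 and Timp2 were at 0.72, 0.93, 1.28 and 0.75, close to the main values. The smooth muscle list was then at 0.35.

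**Figure D3:**
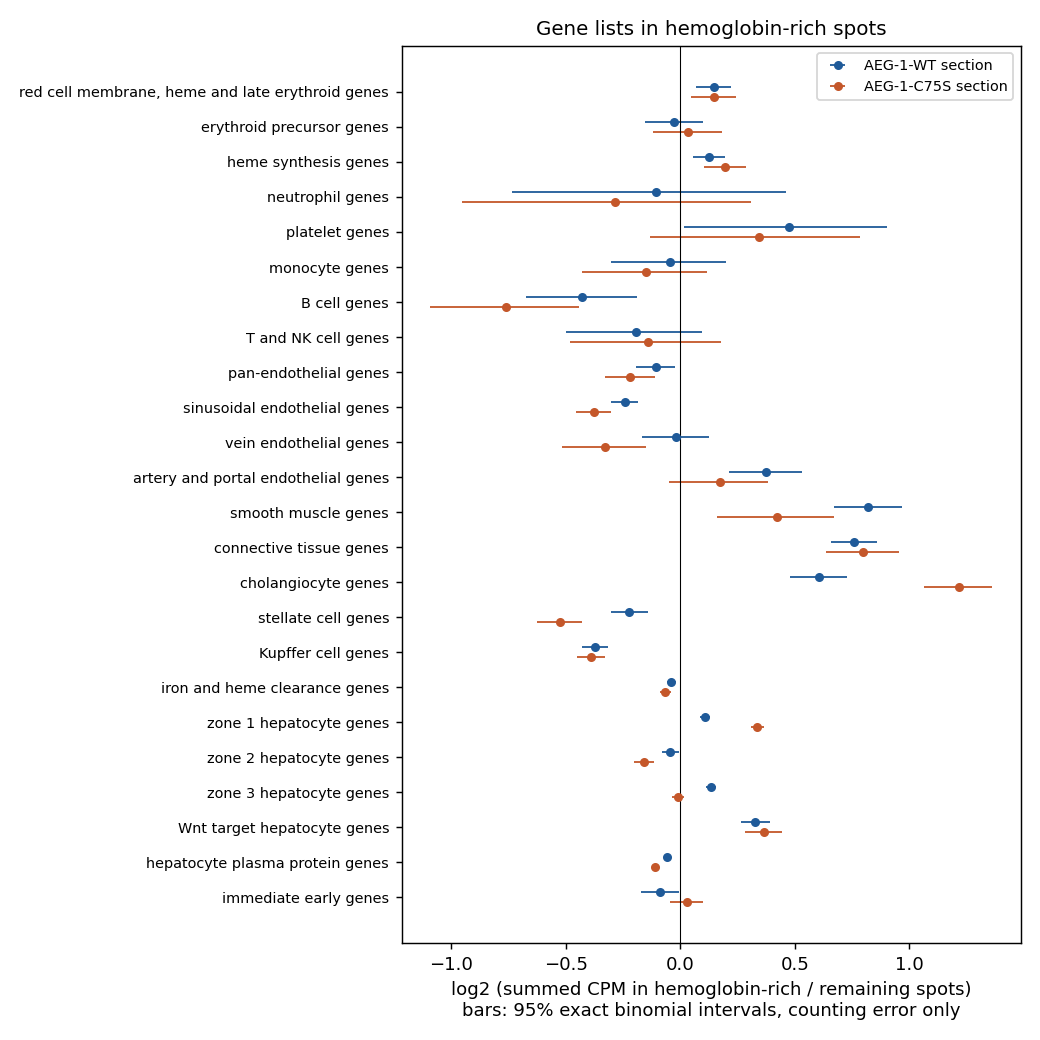
Log2 ratio of the summed level of 24 gene lists in hemoglobin-rich over remaining spots, AEG-1-WT in blue and AEG-1-C75S in orange, with 95% exact intervals for counting error. The connective tissue, smooth muscle and cholangiocyte lists lie above 0 in both sections, and the sinusoidal endothelial, stellate, Kupffer and B cell lists below 0.

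Summed RNA of genes of sinusoidal cells was lower, by less than the 1.5-fold of a call. Kupffer cell genes, of the resident macrophages, summed to 1166 CPM against 1512 CPM in AEG-1-WT (log2 ratio -0.37, -0.43 to -0.32) and 1487 CPM against 1947 CPM in AEG-1-C75S (-0.39, -0.45 to -0.33). Of the 10 of these genes that reached the minimum, 0 were called lower, beside 0.0957% of all genes, a share at which a list of this size would seldom hold any. Of these 10, 0 had a log2 ratio above 0 for AEG-1-WT and 1 for AEG-1-C75S. The most abundant, Cd5l, was at -0.47 (-0.58 to -0.36) and -0.34 (-0.45 to -0.23), Clec4f, a lectin of Kupffer cells, at -0.46 and -0.47, and C1qc, of complement, at -0.52 and -0.60. Of the top 5% of spots by Kupffer cell genes, 1 in each section was hemoglobin-rich.

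Sinusoidal endothelial genes summed to 1044 CPM against 1236 CPM in AEG-1-WT (log2 ratio -0.24, -0.30 to -0.18) and 964 CPM against 1252 CPM in AEG-1-C75S (-0.38, -0.45 to -0.30). Again 0 of 12 were called lower, beside 0.0957% of all genes, and 1 was above 0 for AEG-1-WT and 0 for AEG-1-C75S. Their most abundant gene, the lectin Clec4g, was at -0.24 and -0.44, and Dnase1l3, a secreted nuclease, at -0.26 and -0.54. Stellate cell genes were at -0.22 and -0.53, with 0 of 9 called lower, beside 0.0957% of all genes. Of these 9, 2 had a log2 ratio above 0 for AEG-1-WT and 1 for AEG-1-C75S. The most abundant, Ecm1, was at -0.34 and -0.65, while Des was at 0.60 (0.14 to 1.04) and -0.23. Under 14 other ways of choosing or weighting spots, the Kupffer list ranged from -0.41 to -0.26 for AEG-1-WT and from -0.47 to -0.26 for AEG-1-C75S, and the sinusoidal list from -0.28 to -0.18 and from -0.46 to -0.22.

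Genes that clear hemoglobin and iron were not called. Hp, haptoglobin, which binds free hemoglobin in plasma and is made by hepatocytes, was at 0.22 (0.16 to 0.28) and 0.21 (0.14 to 0.29), and Hpx, hemopexin, which binds free heme, at 0.06 and 0.19. Fth1, the ferritin heavy chain that stores iron, was at -0.22 (-0.26 to -0.19) and -0.34 (-0.38 to -0.29). Hmox1, which breaks down heme, had 43 and 24 UMIs and was at 0.05 (-0.43 to 0.49) and -0.66 (-1.31 to -0.08). The albumin gene Alb was at -0.04 and -0.05, so the main hepatocyte transcript hardly differed.

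The 7 genes lower in both sections were counted on few UMIs. Rsad2 and Epsti1, both induced by interferon, had 25 and 12 UMIs for AEG-1-WT and 21 and 10 for AEG-1-C75S, with log2 ratios of -1.04 (-1.67 to -0.47) and -1.04 (-2.01 to -0.22) for AEG-1-WT and of -0.91 (-1.61 to -0.29) and -0.69 (-1.76 to 0.20) for AEG-1-C75S. Igkc had 52 and 33 UMIs, with log2 ratios of -0.68 (-1.11 to -0.28) and -0.94 (-1.49 to -0.45). The intervals of Mgat5 and Dse spanned 0 in both sections, and those of Epsti1 and Tnfrsf11b in AEG-1-C75S. Among spots of at least 10000 UMIs, Rsad2 was at -1.05 for AEG-1-WT and 0.23 for AEG-1-C75S. Its direction in AEG-1-C75S was thus not kept without the shallow spots, while Igkc was at -0.69 and -0.56. With the remaining spots weighted by depth, Rsad2 was at -0.98 and -0.87.

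Hemoglobin-rich spots were fewest in bin 4 of AEG-1-WT and bin 3 of AEG-1-C75S along the porto-central axis. Spots of each section were split into 5 equal zone bins by a zone score, the log2 ratio of zone 3 genes (Cyp2e1, Cyp1a2, Oat) to zone 1 genes (such as Pck1 and Cyp2f2), from bin 1 (periportal) to bin 5 (pericentral), so that each bin held 461 or 462 spots of AEG-1-WT, or 432 or 433 of AEG-1-C75S. In AEG-1-WT, 32 of the 115 spots (27.8%, 19.9 to 37.0) lay in bin 1 and 33 (28.7%, 20.6 to 37.9) in bin 5, against 23 in bin 2, 15 in bin 3 and 12 in bin 4. In AEG-1-C75S, 53 of the 108 (49.1%, 39.3 to 58.9) lay in bin 1 and 23 (21.3%, 14.0 to 30.2) in bin 5, against 16 in bin 2, 6 in bin 3 and 10 in bin 4. Hemoglobin-rich spots made up 6.93% of bin 1 and 7.16% of bin 5 in AEG-1-WT, and 12.2% and 5.32% in AEG-1-C75S, beside 5% of all spots by the choice, so bin 5 of AEG-1-C75S held close to an equal share. The AEG-1-C75S spots of bin 1 had a median of 11211 UMIs and those of bin 5 of 16878 UMIs. Among AEG-1-C75S spots chosen without the top 5% of spots by portal tract and vessel wall genes, the share of bin 1 was 33.0%.

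**Figure D4:**
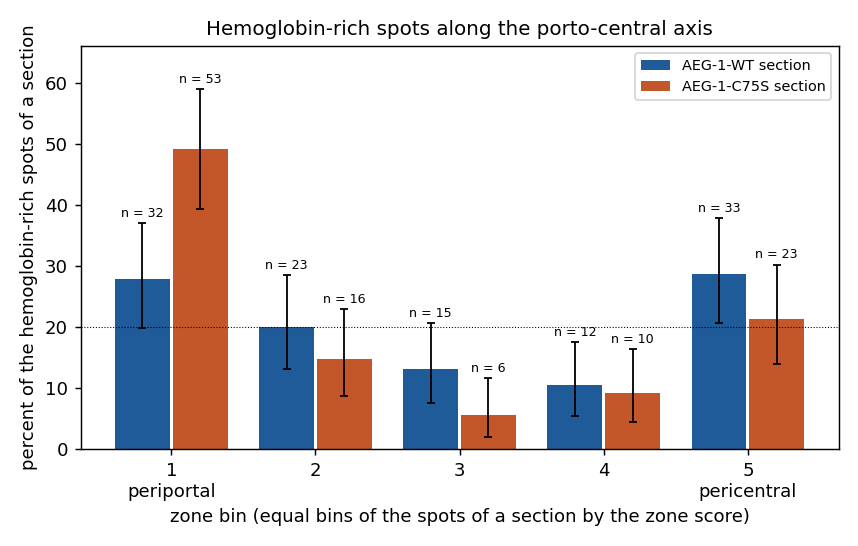
Percent of the hemoglobin-rich spots of a section in each of 5 equal bins of the zone score, bin 1 periportal and bin 5 pericentral, AEG-1-WT in blue and AEG-1-C75S in orange, with 95% exact binomial intervals and the number of spots above each bar; the dotted line marks an equal share. The lowest bars are bin 4 in AEG-1-WT (12 spots) and bin 3 in AEG-1-C75S (6 spots).

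Single vessel and bile duct genes differed along the axis. Gja5 was found at 26.5 CPM against 2.18 CPM in bin 2 of AEG-1-WT, which held 13 of its 15 UMIs, and at 8.82 CPM against 1.78 CPM in bin 1 of AEG-1-C75S, and had 0 UMIs in the hemoglobin-rich spots of bins 4 and 5 of both sections. Spp1 was at 418 CPM against 166 CPM in bin 2 of AEG-1-WT and at 351 CPM against 109 CPM in bin 1 of AEG-1-C75S, but at 186 CPM against 228 CPM in bin 1 of AEG-1-WT. In the hemoglobin-rich spots, Gja5 and Spp1 were thus highest in bin 2 of AEG-1-WT and in bin 1 of AEG-1-C75S. Rspo3, a Wnt signal enhancer made by central vein endothelium, was in bin 5 at 59.9 CPM (41.7 to 83.3) against 29.5 CPM (25.7 to 33.7) for AEG-1-WT and at 53.1 CPM (31.5 to 83.9) against 33.8 CPM (29.9 to 38.04) for AEG-1-C75S. The intervals of Rspo3 did not overlap for AEG-1-WT and did for AEG-1-C75S. Vwf was at 89.7 CPM against 14.99 CPM in bin 2 and 49.6 CPM against 18.8 CPM in bin 5 of AEG-1-WT, with intervals that did not overlap in bin 5. A single spot of bin 2 held 22 of the 44 Vwf UMIs there, and also 44 of the 205 Spp1 UMIs and 4 of the 13 Gja5 UMIs. Without it, bin 2 of AEG-1-WT was at 46.8 CPM (29.3 to 70.8) for Vwf, 342 CPM for Spp1 and 19.1 CPM for Gja5. In bin 1 Vwf was at 17.1 CPM (8.19 to 31.4) against 12.4 CPM for AEG-1-WT and 17.6 CPM (9.11 to 30.8) against 9.17 CPM for AEG-1-C75S, and in bin 5 of AEG-1-C75S at 26.6 CPM (12.1 to 50.4) against 14.5 CPM.

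In bin 5, genes of the hepatocytes next to the central vein were described from a Wnt target list and from single genes. Wnt target hepatocyte genes summed in bin 5 to 2091 CPM (1975 to 2212) against 1547 CPM for AEG-1-WT and to 2289 CPM (2131 to 2456) against 1306 CPM for AEG-1-C75S. Slc1a2, a glutamate transporter driven by Wnt signals there, was in bin 5 at 679 CPM (614 to 750) against 495 CPM for AEG-1-WT and at 785 CPM (693 to 885) against 387 CPM for AEG-1-C75S. Oat, ornithine aminotransferase, was at 2664 CPM against 2048 CPM and at 2847 CPM against 1515 CPM. Cyp2f2, a zone 1 cytochrome, was lower in the same spots, at 243 CPM against 465 CPM and at 401 CPM against 652 CPM. Oat and Cyp2f2 also set the zone score, and Slc1a2 did not. Over all bins, 0 of the 9 Wnt target genes that reached the minimum were called higher, beside 0.15% of all genes, and the list was at 0.33 for AEG-1-WT and 0.36 for AEG-1-C75S. Its members were uneven, with Nkd1 at 0.37 (-0.14 to 0.84) and -1.02 (-2.16 to -0.09) and Lect2 at 0.10 and -0.05.

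Alas2 was higher in the hemoglobin-rich than in the remaining spots in each of the 5 zone bins of both sections. The intervals of these levels were not compared, and some bins held few hemoglobin-rich spots, 6 in bin 3 and 10 in bin 4 of AEG-1-C75S. In bin 1 it was at 39.3 CPM against 8.77 CPM for AEG-1-WT and 24.99 CPM against 9.99 CPM for AEG-1-C75S. In bin 5 it was at 49.6 CPM against 23.7 CPM and at 38.4 CPM against 14.4 CPM. The difference was smallest in bin 2 of AEG-1-WT, at 12.2 CPM against 10.3 CPM. The remaining spots were also uneven, with the higher Alas2 levels toward the central vein in both sections. Kupffer cell genes were lower in the hemoglobin-rich spots in each bin of both sections, for example at 1011 CPM against 1290 CPM in bin 5 of AEG-1-WT and 1207 CPM against 1696 CPM in AEG-1-C75S.

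**Figure D5:**
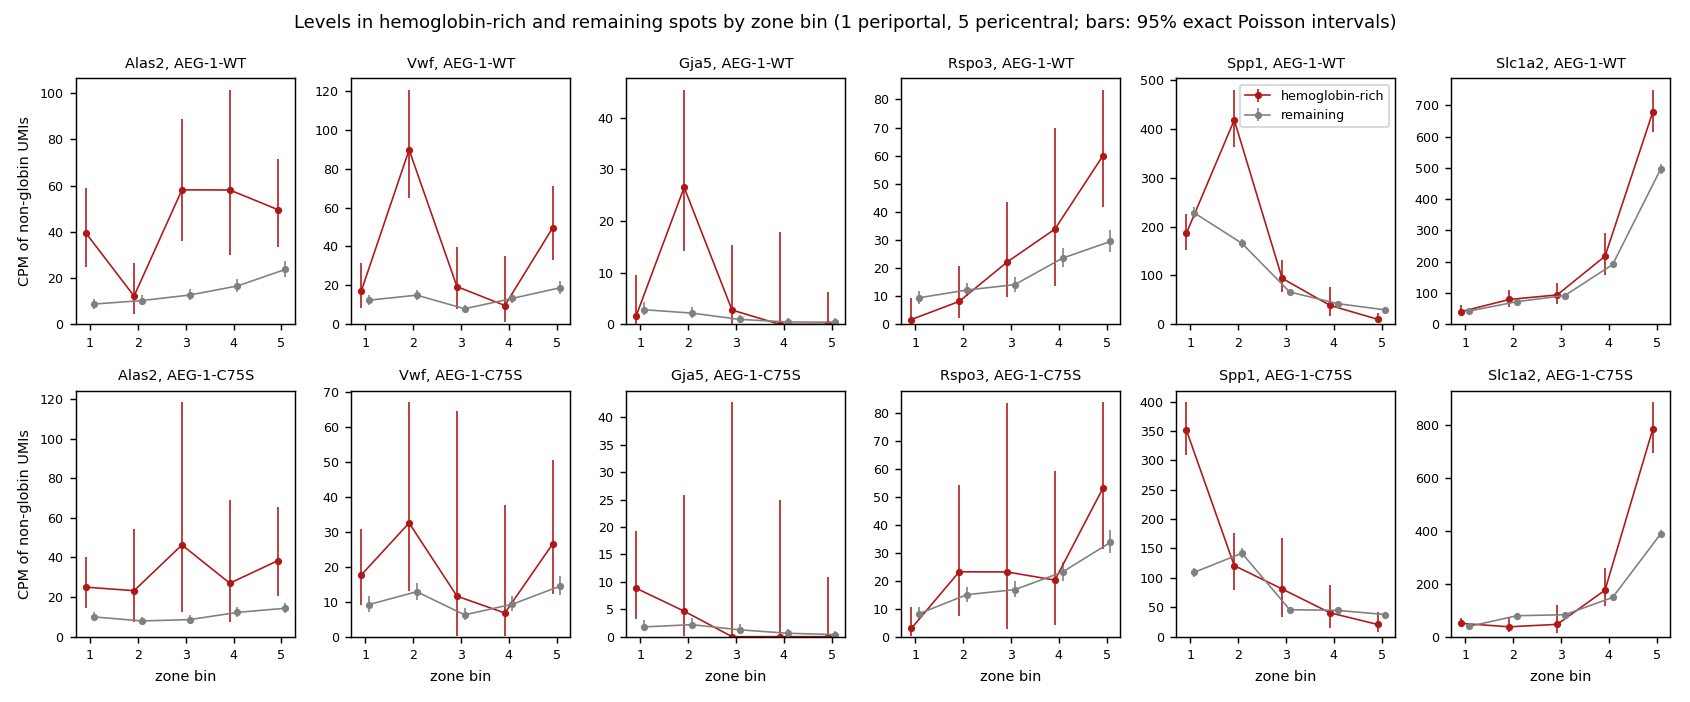
Level (CPM of non-globin UMIs) of Alas2, Vwf, Gja5, Rspo3, Spp1 and Slc1a2 by zone bin (1 periportal to 5 pericentral), AEG-1-WT above and AEG-1-C75S below, hemoglobin-rich spots in red and remaining spots in gray, with 95% exact Poisson intervals. Gja5 and Spp1 peak in bins 1 and 2, Rspo3 and Slc1a2 in bin 5, and the red line of Alas2 lies above the gray in every bin.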

How the data were processed

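RNA of 1 liver section per genotype was measured on Visium spots. The authors made the deposited raw UMI count tables with Space Ranger 2.0.1 on mm10, and the submitters' processing notes also name Seurat 4.3.0. Each table holds 19465 genes, without normalization, and 0 columns of other samples. Groups were taken from the genotype labels.

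Of 4483 spots, those above 50000 UMIs were left out (7 in the wild-type section, 4 in the other). Counts were summed over the hemoglobin-rich and the remaining spots of each section and divided by the sum of non-globin UMIs. Calls needed at least 400 UMIs in each section and a 1.5-fold ratio in the same direction in both. Intervals are exact binomial (Clopper-Pearson) for shares and ratios and exact Poisson for levels by zone bin. No doublet caller was run, since spots hold several cells, and spot coordinates were not used here. For 11 repeated symbols the first row was taken, and 7 list entries were not analysed here. Some genes of the lists are not reported here. Named genes were those of 26 lists, the 12 highest and 12 lowest genes by the section nearer to 0, and all globins. The hemoglobin-rich spots, the lists and the tests were chosen with earlier results of these data known. Alternatives were other shares of spots, globin sets, weights, fold limits and minimums, with 2 filters on globin UMIs and depth added after the data had been seen. Python 3.11.15, numpy 2.4.6, scipy 1.17.1, pandas 2.3.3 and matplotlib 3.10.9 were used, and the scripts were tested on simulated data.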

Additional observations from a re-analysis of the deposited data

Results flagged for a closer look

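Cyp2e1, a cytochrome of zone 3 hepatocytes, had a log2 ratio of 0.10 in the hemoglobin-rich spots of AEG-1-WT and of -0.0595 in those of AEG-1-C75S, opposite directions whose difference was not tested. The AEG-1-C75S value was above 0 in some alternatives, at 0.146 within depth bins, 0.192 weighted by zone, 0.164 without the spots of portal tract and vessel wall genes and 0.146 with spots of at least 10000 UMIs. The spots left out for having more than 50000 UMIs held globin RNA as well. In AEG-1-WT, 181 of 371535 UMIs of 7 such spots were globin, an H of 0.0487% (0.0419 to 0.0564), and in AEG-1-C75S 55 of 218302 UMIs of 4 spots were, an H of 0.0252% (0.0190 to 0.0328), both below the level of the hemoglobin-rich spots.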

How the results depend on the processing

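No paired analysis was possible because each genotype had 1 sample, and none could be left out. The main counts were 11 genes higher and 7 lower in both sections. With the top 2% of spots they were 57 and 42, with the top 10% 3 and 0, at 1.2-fold 343 and 153, at 2-fold 1 and 0, with a minimum of 100 UMIs 79 and 78 and of 2000 UMIs 1 and 0, weighted by zone 7 and 3, and with spots of at least 10000 UMIs, chosen after seeing the data, 5 and 3. The higher count was 4 without the spots of portal tract and vessel wall genes and 7 with equal weight per spot. The lower count was 11 when chosen by Hbb- symbols and 4 within depth bins. Alas2 was above 0 in both sections in all 14 alternatives, from 1.05 to 2.12 and from 1.06 to 2.12. The red cell list was 0.29 (AEG-1-WT) with the top 2%, and the vein list -0.34 (AEG-1-WT) without the portal tract spots. The connective tissue list in AEG-1-WT was 1.35 with the top 2%, 0.40 with the top 10%, 0.64 weighted by zone, 0.25 without portal tract spots and 0.46 with equal weight, and in AEG-1-C75S 1.15, 0.50, 0.41 within depth bins, 0.0573 without portal tract spots, 1.05 with equal weight and 0.26 with at least 10000 UMIs. The zone 1 list in AEG-1-WT was 0.0321 with the top 2%, 0.0594 with the top 10%, 0.0719 chosen by Hba-, 0.0307 weighted by zone, 0.0820 without portal tract spots and 0.0754 centered on the median gene. In AEG-1-C75S it was 0.20 with the top 10%, 0.29 by Hbb-, 0.16 within depth bins, 0.0550 weighted by zone, 0.18 without portal tract spots, 0.39 with equal weight, 0.26 centered and 0.18 with at least 10000 UMIs. The zone 3 list in AEG-1-WT was 0.28 with the top 2%, 0.18 with the top 10%, 0.19 by Hba-, 0.17 without portal tract spots, 0.18 with equal weight and 0.10 centered. In AEG-1-C75S, from -0.01, it was 0.0803 with the top 10%, 0.0604 by Hbb-, 0.20 within depth bins, 0.22 weighted by zone, 0.21 without portal tract spots, 0.19 with at least 10000 UMIs, -0.12 with equal weight and -0.0890 centered. The share of AEG-1-C75S spots in zone bin 1 was 37.5% with the top 10% and 33.0% without portal tract spots. Directions turned without portal tract spots for cholangiocyte genes (-0.15 and -0.0369), artery and portal endothelial genes (-0.11 and -0.16), Acta2 (-0.18) and Spp1 (-0.17) in AEG-1-WT, and Epcam (-0.10), Gja5 (-0.47) and Tagln (-0.25) in AEG-1-C75S. In AEG-1-C75S they also turned for mesothelial genes (-0.11) and Dhrs11 (-0.16) with the top 2%, Epsti1 (0.11), Madd (0.23) and Rsad2 (0.23) with the top 10%, Madd (0.16) within depth bins, and artery and portal genes (-0.05), platelet genes (-0.29), Madd (0.14), Rsad2 (0.23) and Timp2 (-0.0166) with at least 10000 UMIs. Uncalled values turned as well, among them neutrophil genes with the top 2% (0.33 and 0.19), T and NK cell genes in AEG-1-C75S (up to 0.16), Ifit1 in AEG-1-C75S (up to 0.29) and lists near 0, such as erythroid precursor genes in both sections. The cause of these changes was not tested.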

Other observations

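The lists not described above were those of other cells and of hepatocytes, given here as log2 ratios of hemoglobin-rich over remaining spots, first AEG-1-WT and then AEG-1-C75S. Hepatocyte genes of zone 1 were at 0.11 (0.08 to 0.13) and 0.34 (0.31 to 0.37), those of zone 2 at -0.04 and -0.16, and those of zone 3 at 0.13 (0.11 to 0.15) and -0.01 (-0.04 to 0.02). Plasma protein genes were at -0.06 and -0.11, and immediate early genes at -0.09 and 0.03. Pan-endothelial genes were at -0.11 and -0.22, artery and portal endothelial genes at 0.37 and 0.17 (-0.11 and -0.16 without the spots of portal tract and vessel wall genes), monocyte genes at -0.05 and -0.15, and T and NK cell genes at -0.19 and -0.14. Mesothelial genes had 9 and 6 UMIs in the hemoglobin-rich spots, and lymphatic genes 15 and 0.

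Some hemoglobin-rich spots were also in the top 5% of spots by other lists. For red cell genes, 10 spots of AEG-1-WT were in both groups (8.70% of the hemoglobin-rich spots, 4.25 to 15.4), and 19 of AEG-1-C75S (17.6%, 10.9 to 26.1), where such a group held 5% of all spots. These numbers were 6 and 13 for platelet genes, 6 and 10 for vein endothelial genes, and 5 and 1 for sinusoidal endothelial genes.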
